A study of Mus musculus with 4 samples.

Results

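The 6 genes described here, out of 31053 in the matrices, are the main writers and erasers of DNA methylation: Dnmt1, Uhrf1, Dnmt3a, Dnmt3b, Tet2 and Tet3. They were chosen by name, with earlier results of these data known, and their transcripts were followed in spleen cells of mice by single-cell RNA-seq. Splenic B220+IgD- cells were sorted from 8-week-old female mice on the C57BL/6J background. The mice had received sheep red blood cells 10 days before, an antigen that makes germinal centers (GC) form. All 4 groups carried 1 Cγ1-cre allele, which recombines floxed alleles in B cells that enter the GC. WT mice carried this allele alone, C mice also had 1 floxed copy of Crebbp, K mice had 1 floxed copy of Kmt2d, and CK mice had both, so that the deletions are heterozygous and limited to cells with the recombinase. Crebbp encodes a histone acetyltransferase and Kmt2d a histone H3K4 methyltransferase, and the study set the 3 mutant genotypes against WT. Each genotype gave 1 cell suspension and 1 library, so differences between genotypes have no replicate check and no p-value is given for any comparison. Intervals in square brackets are 95% intervals that cover counting error only.

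Methyl groups on CpG sites are kept through cell division by DNMT1, which UHRF1 brings to the hemimethylated sites that replication leaves. DNMT3A and DNMT3B place methyl groups on unmethylated sites, while TET2 and TET3 oxidize 5-methylcytosine and so start its removal. In the GC, centroblasts (CB) divide and mutate their antibody genes in the dark zone, centrocytes (CC) are selected in the light zone, and changes in DNMT3A or TET2 are known from lymphoid malignancies.

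In mm10 with the GENCODE vM21 annotation, Dnmt1 (ENSMUSG00000004099) lies at chr9:20907209-20959888 on the minus strand and Uhrf1 (ENSMUSG00000001228) at chr17:56303321-56323486 on the plus strand. Dnmt3a (ENSMUSG00000020661) lies at chr12:3806007-3914443 and Dnmt3b (ENSMUSG00000027478) at chr2:153649450-153687730, both on the plus strand. Tet2 (ENSMUSG00000040943) lies at chr3:133463679-133545139 and Tet3 (ENSMUSG00000034832) at chr6:83362373-83459084, both on the minus strand, and all 6 are annotated as protein coding.

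The upstream sequences of Dnmt1 and Uhrf1 are shown because both genes were called higher in CB than in CC and higher early than late in pseudotime. E2F factors, which drive replication genes, bind words of the kind TTTCCCGC, TTTCGCGC, TTTGCCGC and TTTGGCGC, and these 4 words were searched on both strands of RefSeq windows (GRCm38.p6) from 250 bases before to 50 bases after a transcript start. Of the 11 windows of the 6 genes, 2 held such a word, 1 of 3 for Dnmt1 and 1 of 2 for Uhrf1, while 2.28% of 32544 distinct windows of this length genome-wide did. The windows are written 5′ to 3′ on the gene's strand, with the words in capitals. The first is chr9:20952574-20952873 (minus strand), whose start lies 356 bases from the nearest start of a principal GENCODE transcript. The second is chr17:56304063-56304362 (plus strand), whose start lies 35 bases from the nearest. The 2 Uhrf1 windows lie near different principal starts. The Dnmt1 window at 0 bases from a principal start and the other Uhrf1 window, at 16, held none of the words.
Dnmt1: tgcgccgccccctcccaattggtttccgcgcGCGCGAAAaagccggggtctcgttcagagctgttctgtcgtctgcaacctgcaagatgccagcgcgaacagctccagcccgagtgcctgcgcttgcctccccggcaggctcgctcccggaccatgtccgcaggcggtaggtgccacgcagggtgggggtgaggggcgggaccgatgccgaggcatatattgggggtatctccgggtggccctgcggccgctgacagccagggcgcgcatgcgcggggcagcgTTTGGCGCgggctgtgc
Uhrf1: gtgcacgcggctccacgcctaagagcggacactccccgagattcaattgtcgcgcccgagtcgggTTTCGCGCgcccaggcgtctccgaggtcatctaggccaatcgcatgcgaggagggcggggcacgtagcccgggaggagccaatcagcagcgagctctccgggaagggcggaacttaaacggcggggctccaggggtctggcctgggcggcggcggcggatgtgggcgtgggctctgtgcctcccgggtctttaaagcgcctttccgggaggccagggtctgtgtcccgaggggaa

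Dnmt1 held TTTCGCGC on the other strand (printed as GCGCGAAA) with its first base at position 32 of the window, counted from 1 at the 5′ end, and TTTGGCGC at position 284. Uhrf1 held TTTCGCGC at position 66. TTTCGCGC alone occurred in 0.326% of all windows. None of the 3 windows of Dnmt3a or the single windows of Dnmt3b, Tet2 and Tet3 held any of the 4 words, which says only that these letters are not in those windows. The Tet3 window lies 14714 bases from the nearest principal start, so that start was not searched. A Dnmt3a window lies 84584 bases from its nearest principal start.

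The 4 libraries held 8071 to 12852 barcodes and 33270825 to 39803865 UMIs (unique molecular identifiers, 1 for each transcript captured), and pairs of libraries shared 17 to 31 barcode sequences. The deposited annotation named 9804 GC B cells (1227, 2041, 2583 and 3953 from WT, C, K and CK) as early CB (680 cells), CB (2262), transitioning from CB to CC (3758), CC (2444), recycling (82) or prememory (578). Median UMIs of annotated cells ran from 3653 in CK to 4931 in WT. No annotated cell held more than 2501 genes, and 2920 cells of GC B-like clusters with 2500 or more genes carried no name, against 100 below that limit. Outside the annotation, clustering without the 6 genes gave 7317 non-GC B-like cells, 1142 marginal zone B-like cells and 7029 T-like cells, although the sort was for B220. The deposited names CB and CC fitted their zone markers: Cd83, a light zone marker, stood at 421 to 572 CPM (UMIs of a gene per 1000000 UMIs of the group) in CC and 60.3 to 86.7 in CB. Cxcr4, the dark zone receptor, was at 12.6 to 17.5 CPM in CC against 27.2 to 38.5 in CB. Prememory cells held 1.89 to 10.1 CPM of Gcsam, a GC B cell marker, which stood at 32.4 to 48.3 CPM in CC and 2.40 to 6.37 in T-like cells. A cluster of 4031 cells, of which 561 were annotated and most often had this name, counted 0 of 7 GC B markers and 6 of 7 non-GC B markers. The markers thus go against calling that cluster a GC state. They were counted over all its cells, most of them unnamed, and not in its prememory cells alone. Of the targeted genes, Crebbp stood at 68.4 (WT), 42.99 (C), 38.6 (K) and 37.96 CPM (CK) and Kmt2d at 18.5 (WT), 21.3 (C), 9.85 (K) and 15.1 CPM (CK) in annotated GC B cells. In T-like cells Crebbp stood at 80.7 (WT), 80.9 (C), 47.4 (K) and 64.2 CPM (CK) and Kmt2d at 27.04 (WT), 30.3 (C), 15.4 (K) and 26.7 CPM (CK). K was thus lowest for both genes in these cells, and 3′ counts need not reflect the loss of internal exons.

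The maintenance pair, Dnmt1 and Uhrf1, was highest in early CB, intermediate in CB and transitioning cells and low in CC in every library. Dnmt1, the maintenance methyltransferase, stood at 374 (WT), 469 (C), 239.5 (K) and 489.5 CPM (CK) in early CB. Its level was 140.3 (WT), 228 (C), 114 (K) and 309 CPM (CK) in CB and 197 (WT), 212 (C), 114 (K) and 278 CPM (CK) in transitioning cells. It was 79.8 (WT), 98.7 (C), 41.9 (K) and 102 CPM (CK) in CC. K was the lowest and CK the highest library in each of these 4 states, and the CB and CC values did not overlap. Uhrf1, which reads hemimethylated DNA and recruits DNMT1, stood at 229.5 (WT), 159 (C), 145 (K) and 167 CPM (CK) in early CB. It was at 37.4 (WT), 45.2 (C), 52.3 (K) and 50.7 CPM (CK) in CB and 28.96 (WT), 31.3 (C), 45.7 (K) and 46.9 CPM (CK) in transitioning cells. In CC it was at 11.5 (WT), 9.02 (C), 13.2 (K) and 11.4 CPM (CK). The CB and CC values of Uhrf1 did not overlap, and the order of the libraries differed from that of Dnmt1: WT was highest in early CB and lowest in CB.

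A gene was called between cell groups where its CPM ratio was at least 1.5-fold in the same direction in 4 of 4 libraries, among genes with at least 20 UMIs over both groups in every library. Between CB and CC, 3 of the 6 genes passed this minimum, and Dnmt1 and Uhrf1 were called higher in CB, as were 9.11% of the 7674 genes tested, while 5.59% were called lower. The log2 ratio of CB over CC, averaged over the 4 libraries, was 1.26 ± 0.34 (SD, n = 4) for Dnmt1, a 2.40-fold difference, and 2.04 ± 0.26 for Uhrf1, a 4.12-fold difference. Each mean was larger than the spread between libraries, the median of all genes tested being 0.07. Subtype names were assigned from expression, so these ratios are descriptions, and an exact sign permutation over 4 libraries could not reach the 0.05 threshold.

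**Figure D1:**
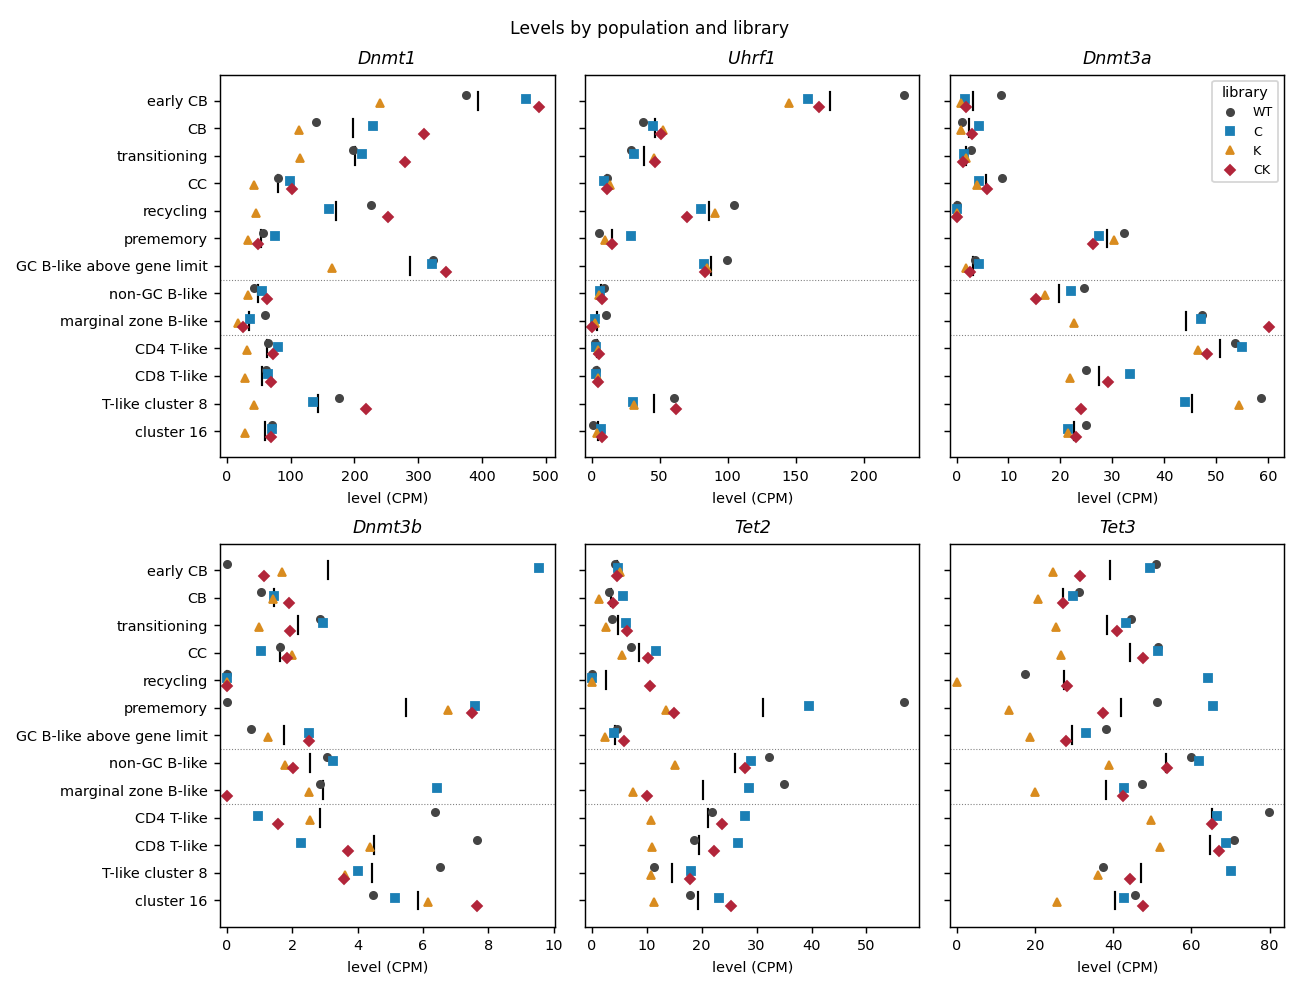
Level of each of the 6 genes in CPM (horizontal axes, linear) in the annotated GC B cell states, GC B-like cells above the gene limit, other B cell groups and T cell groups (rows, parted by dotted lines), with 1 point per library and a vertical bar at the mean of the 4. Dnmt1 and Uhrf1 peak in early CB, where Dnmt1 runs from 239.5 to 489.5 CPM, and Dnmt3a and Tet2 lie low in all annotated states except prememory cells.

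Early CB differed from CB in the same 2 genes. Dnmt1 was 2.07-fold higher in early CB (log2 1.05 ± 0.31) and Uhrf1 3.75-fold higher (log2 1.91 ± 0.50), where 2.97% of all genes tested were called higher and 3.21% lower. Dnmt1 and Uhrf1 also led in transitioning cells over CC, by 1.32 ± 0.16 and 1.74 ± 0.29 on the log2 scale, where 3.98% of genes were called higher. In the 82 recycling cells, Uhrf1 stood at 105 (WT), 80.4 (C), 90.4 (K) and 70.2 CPM (CK). This was 2.93 ± 0.28 above CC on the log2 scale and called, with 8.30% of genes called higher and 3.24% lower. Dnmt1 in recycling cells was at 226 (WT), 161 (C), 45.2 (K) and 253 CPM (CK), on 13 (WT), 10 (C), 5 (K) and 72 UMIs (CK). Its ratio to CC was not called because the log2 ratio in K was 0.11. Recycling is the rarest name, with 8 to 49 cells in a library, so these values carry wide counting intervals. In the order of the mean levels, early CB stood above the next group, GC B-like cells without a deposited name, for both genes beyond the spread between libraries, whereas transitioning cells and CB did not differ beyond it for Dnmt1.

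Since Dnmt1 and Uhrf1 serve replicating DNA, their levels were also read by cell cycle phase, and both were higher in S-leading cells of CB and of transitioning cells. Cells were called S-leading or G2M-leading from 20 replication and 20 mitosis genes that include none of the 6, each list being scaled to its mean over annotated cells. S-leading cells made up 95.6 to 97.9% of early CB, 10.4 to 18.0% of CB, 77.1 to 84.9% of transitioning cells and 60.8 to 72.0% of CC. The calls are relative: the summed S list was at 6619 to 7218 CPM in early CB and 684 to 885 CPM in CC. Most annotated CB were thus in the G2M-leading class, and early CB in the S-leading one. Within CB, Dnmt1 stood at 337 (WT), 474 (C), 210.0 (K) and 479.7 CPM (CK) in S-leading cells and 115 (WT), 189 (C), 90.4 (K) and 274 CPM (CK) in G2M-leading cells. Uhrf1 stood at 137 (WT), 157 (C), 134 (K) and 113 CPM (CK) in the former and 24.6 (WT), 27.3 (C), 32.5 (K) and 37.9 CPM (CK) in the latter. In every library the S-leading value was the higher for both genes, and for Uhrf1 the S-leading and G2M-leading values of the 4 libraries did not overlap. The log2 ratio was 1.23 ± 0.31 for Dnmt1 and 2.15 ± 0.44 for Uhrf1, both called, where 2.71% of 5200 genes were called higher and the median gene was at -0.11. Tet3, the third of the 6 that passed the minimum, had a log2 ratio of -0.11 ± 0.70 and no common direction.

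In transitioning cells the same split gave 1.57 ± 0.31 for Dnmt1 and 1.61 ± 0.42 for Uhrf1, again both called, with 2.05% of genes called higher and 0.236% lower. In CC, Uhrf1 stood at 9.89 to 15.4 CPM in S-leading and 9.18 to 12.4 CPM in G2M-leading cells, and Dnmt1 at 41.7 to 118 CPM and 39.3 to 78.9 CPM, with overlapping ranges for both. The means over libraries were 12.1 and 10.2 CPM for Uhrf1 and 89.0 and 57.7 CPM for Dnmt1. Ratios within each library were not taken for this split in CC, so the overlap does not show equal levels. In early CB, where 1 to 15 cells of a library were G2M-leading, none of the 6 genes passed the minimum, and 0.445% of the genes that did were called higher and 1.67% lower. In S-leading CB, Dnmt1 reached the level of early CB in C (474 and 469 CPM) and CK (479.7 and 489.5 CPM). Across 50 profiles of a library and a cell group, the log2 level of Uhrf1 had a Pearson r of 0.95 with the summed S list and 0.82 with the G2M list, and that of Dnmt1 0.87 and 0.76. The profiles share libraries and come from groups defined by expression, so these values are descriptions.

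**Figure D2:**
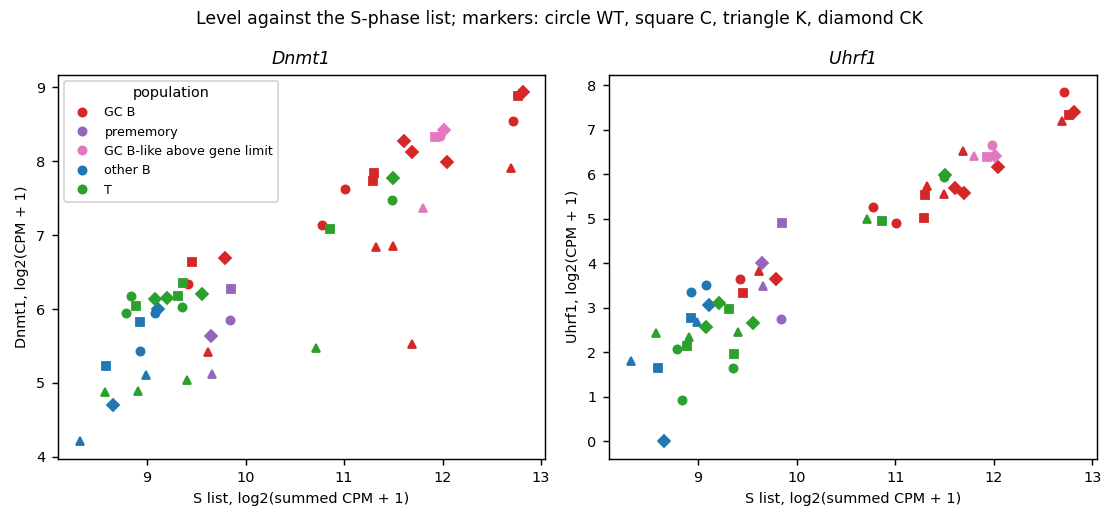
Summed CPM of the 20 S-phase genes (horizontal axes, log2) against the CPM of Dnmt1 and of Uhrf1 (vertical axes, log2), 1 point per library and cell group, coloured by kind of cell and shaped by library. Both genes climb with the S list (Pearson r = 0.87 and 0.95), and the 4 points at the upper right are early CB.

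Along the deposited pseudotime, which the authors inferred for GC B cells, the maintenance pair fell and Dnmt3a and Tet2 rose. Cells were ranked within their own library and divided into 5 equal parts, and 5 of the 6 genes passed the minimum of 20 UMIs between the first and the last. Dnmt1 went from 270.1 (WT), 363 (C), 194 (K) and 431 CPM (CK) in the earliest part to 44.6 (WT), 63.9 (C), 32.6 (K) and 74.03 CPM (CK) in the latest. Its log2 ratio of earliest over latest was 2.60 (WT), 2.51 (C), 2.58 (K) and 2.54 (CK), so the decline was nearly the same size in the 4 libraries (2.56 ± 0.04). Uhrf1 went from 84.9 (WT), 88.2 (C), 100.2 (K) and 96.6 CPM (CK) to 1.09 (WT), 12.2 (C), 9.72 (K) and 6.35 CPM (CK). The last value in WT rested on 1 UMI, so its log2 ratio there of 6.29 has an interval of [3.78, 11.60], while the other 3 libraries gave 2.85, 3.36 and 3.93. Both genes were called higher early, with 11.3% of 7484 genes called higher and 6.41% lower.

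Dnmt3a, a de novo methyltransferase, went from 2.01 (WT), 3.36 (C), 1.19 (K) and 2.71 CPM (CK) in the earliest part to 23.9 (WT), 13.99 (C), 9.15 (K) and 6.87 CPM (CK) in the latest. Tet2 went from 2.01 (WT), 4.62 (C), 2.67 (K) and 3.39 CPM (CK) to 30.5 (WT), 26.2 (C), 9.15 (K) and 10.05 CPM (CK). Both were called lower early, at -2.48 ± 0.98 and -2.44 ± 1.07 on the log2 scale, and the latest value was larger in WT and C than in K and CK for both genes. Tet3 was at 36.8 (WT), 36.97 (C), 21.6 (K) and 26.4 CPM (CK) in the earliest and 50.04 (WT), 65.6 (C), 19.4 (K) and 46.5 CPM (CK) in the latest part, which was no call, the log2 ratio being -0.44 in WT and 0.15 in K. The make-up of the latest part differed between libraries: prememory cells were 47.6 (WT), 46.2 (C), 16.2 (K) and 12.4% (CK) of it. Most of the rest were CC. Without prememory cells, an alternative added after the data were seen, Dnmt1 and Uhrf1 kept their calls, and Dnmt3a and Tet2 fell below the 20 UMI minimum. Their log2 ratios then were -3.10 (WT), -0.47 (C), -1.97 (K) and -0.81 (CK) for Dnmt3a. For Tet2 they were -1.52 (WT), -1.88 (C), -1.58 (K) and -1.49 (CK), lower early in each library and on few UMIs.

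**Figure D3:**
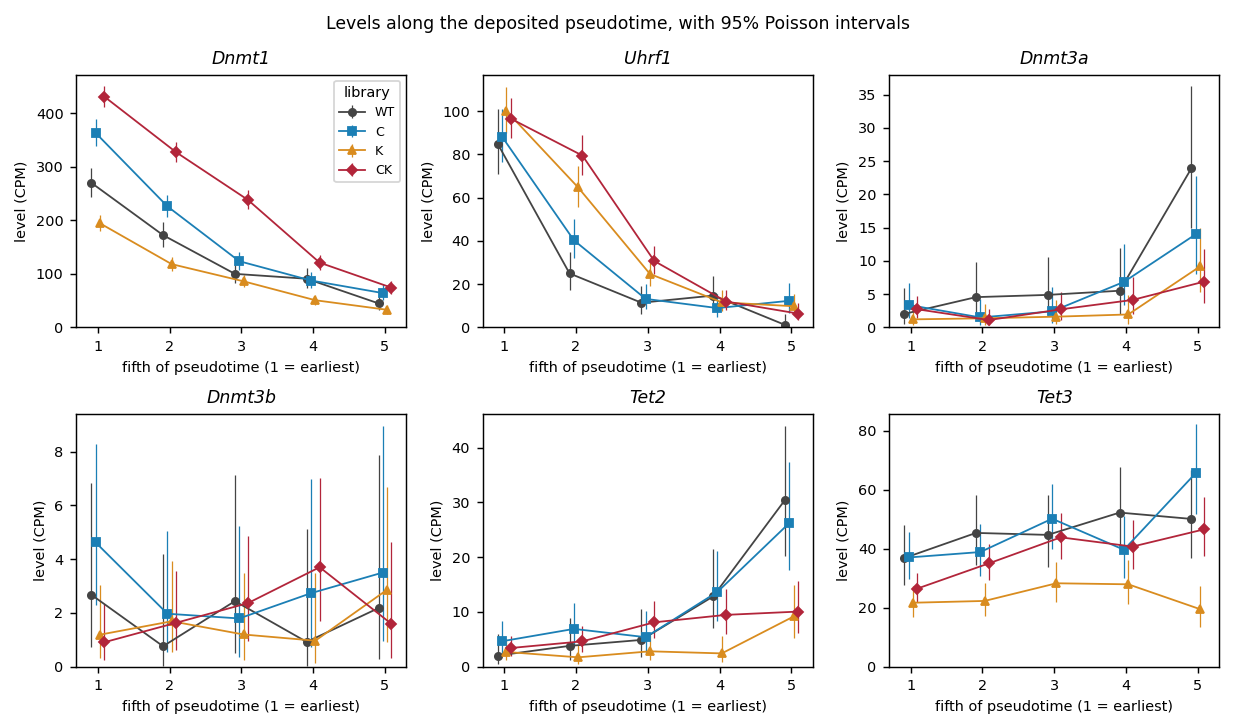
CPM of each of the 6 genes (vertical axes, linear) in 5 equal parts of the cells of each library ordered by pseudotime (horizontal axis, part 1 earliest), 1 line per library with 95% Poisson intervals. Dnmt1 and Uhrf1 decline in the 4 libraries, and Dnmt3a and Tet2 climb in the last part, more in WT and C than in K and CK.

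The de novo enzymes gave few UMIs in GC B cells. Dnmt3a gave 163 UMIs over all annotated GC B cells and Dnmt3b 85. Dnmt3a stood at 0.853 to 4.33 CPM in CB, 1.23 to 2.85 CPM in transitioning cells and 3.995 to 8.75 CPM in CC. Prememory cells were the exception, at 32.2 (WT), 27.4 (C), 30.4 (K) and 26.3 CPM (CK). Every prememory value exceeded every CC value, and the log2 ratio to CC was 2.41 ± 0.48, but in K the gene had under 20 UMIs over both groups and was not tested, so that no member was called here, where 7.96% of genes were called higher and 6.98% lower. Non-GC B-like cells held Dnmt3a at 24.6 (WT), 22.1 (C), 16.97 (K) and 15.4 CPM (CK). Prememory cells differed from them by 0.58 ± 0.27 on the log2 scale, higher in 4 of 4 libraries without reaching 1.5-fold in each, where 7.23% of genes were called higher and 7.93% lower. In recycling cells Dnmt3a and Dnmt3b had 0 UMIs in all 4 libraries, which with so few cells allows levels of up to 13.0 to 64.3 CPM (exact Poisson upper limits). Dnmt3b, the second de novo enzyme, had at most 9.54 CPM in any annotated state and library, and no difference between states could be read at this depth.

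Of the erasers, Tet2 (280 UMIs in annotated GC B cells) was called between states of GC B cells and Tet3 (1522 UMIs) was not. Tet2 was at 3.12 (WT), 5.77 (C), 1.42 (K) and 3.82 CPM (CK) in CB and 3.67 (WT), 6.20 (C), 2.56 (K) and 6.49 CPM (CK) in transitioning cells. In CC it was at 7.11 (WT), 11.7 (C), 5.59 (K) and 10.3 CPM (CK). It was called lower in transitioning cells than in CC, at -0.92 ± 0.19 on the log2 scale with 2.93% of all genes called lower. The counting interval of every library included 0 there, as in WT with [-2.36, 0.39] on 9 and 13 UMIs. Between CB and CC, Tet2 was lower in 4 of 4 libraries on too few UMIs to be called. Prememory cells held Tet2 at 56.8 (WT), 39.5 (C), 13.5 (K) and 15.01 CPM (CK). The WT and C values, on 30 and 26 UMIs, were above every other annotated state, while the K and CK values rest on 4 UMIs each. Tet3 was at 31.2 (WT), 29.8 (C), 20.7 (K) and 27.2 CPM (CK) in CB and 51.4 (WT), 51.5 (C), 26.8 (K) and 47.6 CPM (CK) in CC. The log2 ratio of CB over CC was -0.72 (WT), -0.79 (C), -0.37 (K) and -0.81 (CK), lower in 4 of 4 libraries and not called, since K stayed within 1.5-fold. In the order of mean levels, CC and prememory cells did not differ in Tet3 beyond the spread between libraries, and K was the lowest library in both.

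Outside the GC, Dnmt1 and Uhrf1 were lower and Dnmt3a and Tet2 higher than in GC B cells, in non-GC B-like and in T-like cells. All 6 passed the 20 UMI minimum between annotated GC B cells and T-like cells. Dnmt1 stood at 148 (WT), 199 (C), 109 (K) and 276 CPM (CK) in GC B cells and 77.6 (WT), 77.3 (C), 31.5 (K) and 91.2 CPM (CK) in T-like cells. Uhrf1 stood at 31.5 (WT), 39.2 (C), 49.9 (K) and 55.3 CPM (CK) in GC B cells and 10.6 (WT), 6.49 (C), 7.71 (K) and 13.1 CPM (CK) in T-like cells, and its groups did not overlap. Both were called higher in GC B cells, by 1.42 ± 0.37 and 2.23 ± 0.52 on the log2 scale, with 16.9% of 10072 genes called higher and 17.4% lower. Dnmt3a stood at 7.09 (WT), 4.71 (C), 2.52 (K) and 3.05 CPM (CK) in GC B cells and 38.6 (WT), 40.1 (C), 34.7 (K) and 34.5 CPM (CK) in T-like cells, a 9.22-fold lower level (log2 -3.20 ± 0.58) without overlap between the groups. Tet2 (-1.49 ± 0.36) and Tet3 (-0.77 ± 0.20) were also called lower in GC B cells, and Dnmt3b (-0.86 ± 1.03) was not. Against non-GC B-like cells, 6 genes were again tested and 4 called. Dnmt1 was higher in GC B cells by 1.87 ± 0.19 and Uhrf1 by 2.66 ± 0.63, where 13.1% of genes were called higher, and Dnmt3a was lower by a log2 ratio of -2.28 ± 0.39 and Tet2 by -1.93 ± 0.29, where 13.9% were called lower. Tet3 was lower in 4 of 4 libraries (-0.54 ± 0.13) without passing 1.5-fold in each.

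Among T-like cells, Dnmt3a stood at 53.7 (WT), 54.96 (C), 46.5 (K) and 48.3 CPM (CK) in CD4 T-like cells and 24.98 (WT), 33.5 (C), 21.9 (K) and 29.1 CPM (CK) in CD8 T-like cells. The values did not overlap, and Dnmt3a was the 1 of 4 tested members called between them, at 0.91 ± 0.22 on the log2 scale, where 14.5% of genes were called higher and the median gene was at 0.32. A further cluster of 390 T-like cells, led by Itm2a, Eomes and Tnfrsf9, in which 8.46% of cells were doublet calls, held Dnmt1 at 176 (WT), 134 (C), 43.5 (K) and 218 CPM (CK). Its Uhrf1 level was 60.4 (WT), 30.1 (C), 30.8 (K) and 62.2 CPM (CK). Its Dnmt1 and Uhrf1 levels stood above those of CD4 and CD8 T-like cells of the same library in each case. Marginal zone B-like cells held Dnmt3a at 47.3 (WT), 47.1 (C), 22.6 (K) and 60.2 CPM (CK). This was higher than other non-GC B-like cells in 4 of 4 libraries (1.10 ± 0.65 on the log2 scale) but under 1.5-fold in K, where 3.49% of genes were called higher and 9.35% lower. Of the GC B cell markers, T-like cells held 1.95 to 5.29% of the GC B cell level for Gcsam, Rgs13 and Mef2b, 8.29 to 10.6% for S1pr2, 20.5 to 23.9% for Fas and 22.3 to 34.5% for Bcl6, and some T cells express the last 2. For Dnmt1 the T-like level was 28.9 to 52.6% of that of GC B cells and for Uhrf1 15.5 to 33.8%. Much of the T-like Uhrf1 came from the cluster of 390 cells, which gave 37 of 48 (WT), 15 of 27 (C), 17 of 34 (K) and 52 of 78 UMIs (CK), while CD4 and CD8 T-like cells held 2.12 to 5.25 CPM and 3.22 to 4.96 CPM. The part of free RNA and of doublets in these values was not tested.

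Dnmt1 was lower than WT in K and higher in CK in each of early CB, CB, transitioning cells and CC, not always by 1.5-fold, and the ratios changed with the cells that were counted. Here a gene was called where a mutant library differed from WT by at least 1.5-fold, with the same minimum of 20 UMIs over the pair. In all annotated GC B cells the log2 ratio of Dnmt1 over WT was 0.43 [0.32, 0.55] for C, -0.44 [-0.56, -0.31] for K and 0.90 [0.80, 1.01] for CK, and only that of CK was called. Uhrf1 was at 0.32 [0.06, 0.58] for C, 0.66 [0.43, 0.90] for K and 0.81 [0.59, 1.05] for CK, called in K and CK. Of the 6 genes, 2 were called in C, 4 in K and 3 in the CK library. Of all genes, 4.95% were called higher and 3.94% lower in C, 5.07% and 23.6% in K, and 8.65% and 9.03% in CK. The K library thus had many genes called lower, in T-like cells too (24.3%), and its median gene stood at -0.16 in GC B cells and -0.20 in T-like cells. Of the 4 members called in K, Dnmt3a, Tet2 and Tet3 were lower and Uhrf1 was higher.

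In CB, Dnmt1 was called higher in C (0.70 [0.42, 0.99]) and CK (1.14 [0.89, 1.41]), and stood at -0.30 [-0.59, -0.01] in K. Of all genes, 8.79% were called higher and 8.18% lower in C, and 11.5% and 12.0% in CK. In K, Tet3 (-0.59 [-1.22, 0.08]) was the 1 member called, with 7.45% of genes higher and 23.2% lower. Uhrf1 in CB was at 0.27 for C, 0.48 for K and 0.44 for CK and not called. The CB of the 4 libraries were spread differently over the clusters: one led by Hist1h1b, Hist1h1a and other histone genes held 16.4 (WT), 39.9 (C), 1.55 (K) and 50.7% (CK) of them. Another, led by Hist1h2ap, Pbk and Rrm2, held 2.73 (WT), 0.713 (C), 36.6 (K) and 0.592% (CK). In CC, which lay mostly in 1 cluster, Dnmt1 was called lower in K (-0.93 [-1.30, -0.56]) along with Tet3 (-0.94 [-1.42, -0.47]) and Dnmt3a (-1.13 [-2.43, 0.10], on 26 UMIs). It was also called lower in K in early CB (-0.64 [-0.99, -0.28], with 21.8% of genes lower) and transitioning cells (-0.78 [-0.96, -0.61], with 22.7% lower). In CC, 4.60% of all genes were called higher and 22.6% lower. C in CC had 2 calls, Dnmt3a (-1.04 [-2.47, 0.27]) and Tet2 (0.72 [-0.34, 1.83]), whose intervals include 0, with 5.71% of genes called higher and 5.82% lower. CK had none, Dnmt1 being at 0.36 [0.06, 0.66], with 7.17% and 5.66%.

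Counting the GC B-like cells above the gene limit brought Dnmt1 in C and CK to near WT and left it lower in K. These unnamed cells held Dnmt1 at 323 (WT), 321 (C), 164 (K) and 343 CPM (CK) and Uhrf1 at 99.5 (WT), 82.6 (C), 84.5 (K) and 83.6 CPM (CK). Relative to the annotated GC B cells of their library, Uhrf1 was called higher (1.02 ± 0.47), with 3.08% of genes called higher and 3.61% lower. Dnmt1 was higher in 4 of 4 libraries (0.68 ± 0.34) without a call. They number 842 (WT), 637 (C), 792 (K) and 649 (CK), so they are a larger share of the GC B cells of WT than of CK. When they were given the most frequent name among their nearest annotated cells, 452 (WT), 393 (C), 489 (K) and 447 (CK) were added to CB. Dnmt1 in CB then stood at -0.085 for C, -1.08 for K and 0.13 for CK relative to WT on the log2 scale, and Uhrf1 at -0.43 for C, -0.38 for K and -0.30 for CK. In all GC B cells Dnmt1 stood at -0.018 for C, -0.95 for K and 0.20 for CK and Uhrf1 at -0.33 for C, -0.19 for K and -0.22 for CK, so the excess of Uhrf1 in K and CK turned its sign. The ratios also moved when each subtype was weighted by its share of UMIs in WT, an alternative added after the data were seen: Dnmt1 was then at 0.27 for C, -0.72 for K and 0.56 for CK and Uhrf1 at 0.02 for C, 0.27 for K and 0.31 for CK.

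T-like cells, where the cre allele of the immunoglobulin locus is not expected to act (recombination was not measured), differed between the same libraries too. Dnmt1 was at -0.0045 for C, -1.30 for K and 0.23 for CK, and the K value, called lower, was larger in size than that of K in GC B cells. In K, Dnmt1 stood at -0.44 in annotated GC B cells and -0.30 in CB. Taken relative to T-like cells, it was thus higher than WT in both. Dnmt3b was called lower in the 3 mutants (-1.71 for C, -0.97 for K and -1.23 for CK), on 32 (WT), 9 (C), 16 (K) and 18 UMIs (CK). Uhrf1 was called lower in C (-0.71, on 27 UMIs and 48 in WT), but its ratio was 0.70 after cells were thinned to 2000 UMIs. Thinning left out the cells with fewer UMIs, 93 of 1268 T-like cells in WT and 485 of 1614 in C. The 2 ratios thus rest on different sets of cells. Tet2 was called lower in K, so that 2, 3 and 1 members were called in C, K and CK, where 5.82%, 24.3% and 5.01% of genes were called lower. Tet2 in GC B cells was called lower in K (-1.48 [-2.09, -0.88]), and it was lower there in non-GC B-like cells as well (-1.08 [-1.68, -0.52]). Dnmt3a in GC B cells was lower in the 3 mutants, at -0.59 [-1.24, 0.06] for C, -1.49 [-2.20, -0.80] for K and -1.22 [-1.85, -0.59] for CK, and weighting subtypes as in WT brought it to -0.50 for C, -0.58 for K and -0.47 for CK. Prememory cells, the annotated state with the most Dnmt3a per UMI, made up 145 of 1227 GC B cells of WT, 225 of 2041 of C, 93 of 2583 of K and 115 of 3953 of CK. Tet3 was called lower in K in GC B cells (-0.92 [-1.16, -0.68]), CB and CC, and stood at -0.49 [-0.75, -0.24] in T-like cells.

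**Figure D4:**
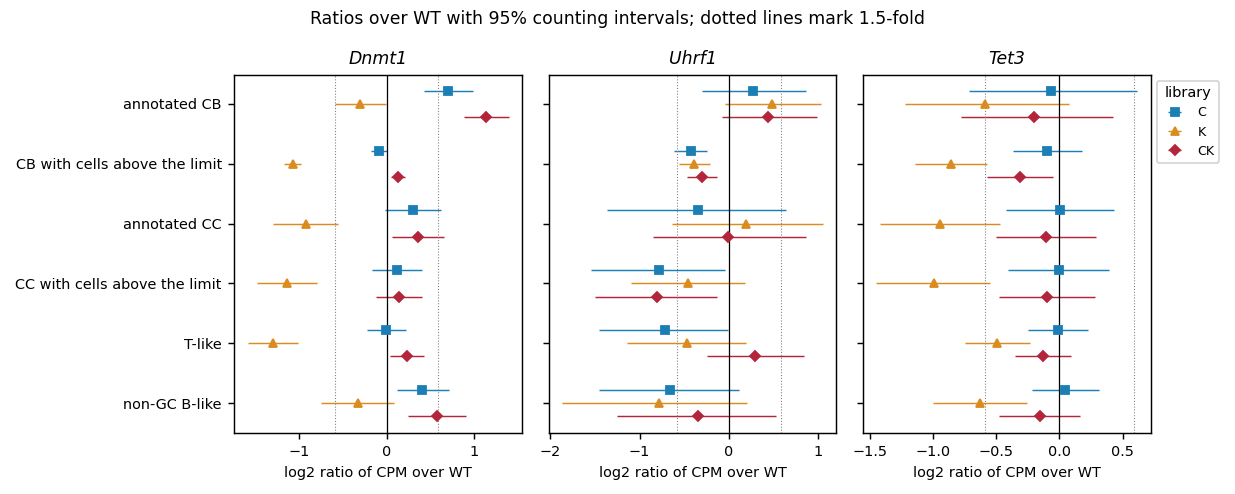
Log2 ratio of CPM over WT (horizontal axes) of Dnmt1, Uhrf1 and Tet3 in C, K and CK, with 95% counting intervals and dotted lines at 1.5-fold, for annotated CB and CC, the same with the cells above the gene limit, T-like and non-GC B-like cells (rows). Dnmt1 in CB lies at 0.70 for C and 1.14 for CK and close to 0 once those cells are added, and K lies below 0 for Dnmt1 and Tet3 in every row.

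Other genes of the pathway were read from 5 lists chosen by name, 42 genes in all. Among the partners of maintenance, 5 of 6 were tested in the comparisons of states, phases and genotypes that follow. Hells, a remodeler needed for methylation of repeats, and Pcna, the replication clamp, were called higher in CB than in CC (1.41 ± 0.17 and 1.49 ± 0.35 on the log2 scale), so 2 of the 5 partners tested were called, as were 9.11% of all genes, with a list median of 0.49 against 0.07 for all genes. Along pseudotime, 4 of 5 were called higher early: Hells (2.75 ± 0.17), Pcna (2.70 ± 0.46), Cdca7 (2.21 ± 0.26), which works with HELLS, and Usp7 (0.81 ± 0.23), a deubiquitinase that acts on DNMT1 and UHRF1, where 11.3% of all genes were. In S-leading over G2M-leading CB, 3 of 5 were called higher against 2.71% of all genes (list median 1.64), and Pcna is also a gene of the S list. Against WT in GC B cells, 3 of 5 were called higher in CK (Hells, Cdca7 and Pcna), 1 higher (Pcna) and 1 lower (Usp7) in K and none in C, where 8.65% of all genes were called higher in CK, and 5.07% higher and 23.6% lower in K. These partner ratios are from annotated cells and were not recomputed with the cells above the gene limit. Adding those cells turned Uhrf1 to -0.19 in K and -0.22 in CK.

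Of the erasers and repair genes, 0 were called higher and 1 lower of 11 in CB over CC, the latter being Apex1 (-1.29 ± 0.33), an abasic site endonuclease. Of all genes tested between CB and CC, 9.11% were called higher and 5.59% lower. GC B cells over T-like cells gave 6 higher and 2 lower of 13: Mbd4 (3.48 ± 0.38), a thymine glycosylase, and Xrcc1 (2.55 ± 0.10), a repair scaffold, were among those higher. Of all genes 16.9% were higher and 17.4% lower, so that the count of lower ones is near the background. Tet1, the third gene of the TET family, was lower in GC B cells (-3.83 ± 0.57), as was Ogt (-0.84 ± 0.17), a glycosyltransferase that binds TET proteins. Against non-GC B-like cells, 5 were higher and 3 lower of 12, with Ung (2.75 ± 0.61), the uracil glycosylase of somatic hypermutation, among the former and Gadd45g (-2.24 ± 0.43) among the latter, where 13.1% of all genes were higher and 13.9% lower. Of the readers, Mbd2 was the 1 of 7 called between CB and CC (1.60 ± 0.08), where 9.11% of all genes were higher. It was also higher in GC B cells than in T-like cells (1.52 ± 0.19) with Zbtb38 (1.87 ± 0.10), 2 of 7 where 16.9% of all genes were higher. The methyl donor list had no call among 6 genes between CB and CC, and 4 of 8 were higher in GC B than in non-GC B-like cells (all genes 13.1%), among them Ahcy (1.38 ± 0.58), which clears S-adenosylhomocysteine. In the 2-oxoglutarate list, whose enzymes make or use the cosubstrate of TET proteins and their inhibitors, 2 of 5 were higher early in pseudotime (all genes 11.3%), Idh2 (1.21 ± 0.27) and Fh1 (0.89 ± 0.27), and the list had no call between CB and CC.

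Across the 50 profiles and among 5413 genes, the profile most like that of Dnmt1 was that of Smc1a, a cohesin subunit (Pearson r = 0.95), followed by Mcm4 (0.94), Wdr76 (0.93), Msh6 (0.92) and Rbbp4 (0.92). For Uhrf1 they were Pcna (0.96), Mcm7 (0.95), Nasp (0.95), Mcm5 (0.95) and Prim1 (0.95), and for Tet3 Bcor (0.93), Mob3a (0.92), Stim1 (0.91), Dmtf1 (0.91) and Ncoa2 (0.90). Dnmt3a, Dnmt3b and Tet2 had under 500 UMIs in annotated GC B cells and were not ranked in this way. Within the 6 genes, Dnmt1 and Uhrf1 had r = 0.81 and Dnmt3a and Tet2 r = 0.79, whereas Dnmt3a and the S list had r = -0.71.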

How the data were processed

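The authors aligned the reads of a 10x 3′ kit to mm10 with Cell Ranger 3.0 (3.0.2 per the file headers), and they deposited raw UMI counts per gene and barcode. They also deposited a cell table with Seurat 4.0 subtype names transferred from published data sets, mitochondrial percent (under 8), S and G2M scores and a pseudotime score, the slingshot rank made for each mutant together with WT. Counts were summed per library and cell group and divided by the group's total UMIs (CPM). Intervals are exact Poisson for a level and exact conditional binomial for a ratio, at 95%. PCR copies are collapsed by the UMIs.

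Barcodes without a deposited name were clustered in scanpy 1.11.5 without the 6 genes (3000 variable genes, 30 components, 15 neighbours, resolution 1) and called "like" a type from its markers. Scrublet marked 3.37 to 4.96% of barcodes, which were kept. It marked none in C on its own, so the median threshold of the other libraries was used there. Pairs of libraries shared 17 to 31 barcode sequences, too few to point to shared cells. Ratios were tested on simulated counts.

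The 6 genes and the lists were chosen with earlier results of these data known. All 6 are named, as are some, not all, of the list genes that were called. Also named are the 5 genes with the highest Pearson r of log2(CPM + 1) for members with at least 500 UMIs. These were taken over profiles of at least 100000 UMIs and among genes of mean CPM at least 20. Alternatives were another scaling, thinning to 2000 UMIs, doublets removed, means over cells, a 2-fold threshold, T-like cells as reference, cells above the gene limit, the deposited phase scores, 10 pseudotime parts, all genes with a UMI as background and each library left out. Values of 1 listed gene are not reported here.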

Additional observations from a re-analysis of the deposited data

Results flagged for a closer look

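Dnmt3b had log2 ratios of opposite sign in GC B and T-like cells of C relative to WT, 0.72 [-0.35, 1.89] and -1.71 [-2.97, -0.61]. The GC B value rests on 26 UMIs in C and 11 in WT, and its interval includes 0. The T-like value rests on 9 UMIs in C and 32 in WT, and the difference between the cell types was not tested.

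Uhrf1 in K relative to WT had log2 ratios of 0.66 in annotated GC B cells and -0.79 in non-GC B-like cells, and this difference was not tested. The latter value rests on 12 UMIs in K and 33 in WT, and its interval of [-1.87, 0.20] includes 0. The former turned to -0.19 with the cells above the gene limit. Within the GC, Uhrf1 in K had 0.66 in transitioning cells and -0.67 in early CB, of which WT held 38, and that difference was not tested either.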

How the results depend on the processing

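The numbers of the 6 genes called between cell groups as reported were 2 (CB over CC), 4 (pseudotime), 2 (cell cycle within CB), 5 (GC B over T-like) and 4 (GC B over non-GC B-like). Leaving out 1 library at a time gave 2 to 3, 4 to 4, 2 to 2, 5 to 6 and 4 to 4. These counts could not fall, since a gene called in 4 of 4 libraries is called in any part of them. Of the 147 recomputed counts, which include these, 109 stayed within 1.5 times. A 2-fold threshold gave 1 for CB over CC, 1 for the cell cycle and 3 for GC B over T-like. Thinning to 2000 UMIs per cell leaves out cells with fewer UMIs and puts fewer genes above the minimum. It gave 2 for pseudotime and 1 for the cell cycle. Pseudotime gave 2 with 10 parts and 2 without prememory cells.

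Against WT, the numbers called in C, K and CK were 1, 1 and 1 in CB, 2, 3 and 0 in CC, 2, 4 and 3 in GC B and 2, 3 and 1 in T-like cells. A 2-fold threshold gave 0 in C and 0 in K in CB, 1 in C and 1 in K in CC, 0, 2 and 1 in GC B, and 1 in C and 1 in K in T-like cells. Thinning gave 2 in CK in CB, 0, 1 and 1 in CC, 0 in C in GC B and 2 in CK in T-like cells. Means over cells gave 0 in K in CB, 1 in CK in CC, and 1 in C and 2 in CK in T-like cells. Removing doublet calls gave 0 in C and 1 in CK in CC. T-like cells as reference gave 2 in C and 2 in K in CB and 1 in C in CC. Cells above the gene limit gave 4 in K in CB, 1 in CK in CC and 1 in C in GC B. Subtypes weighted by their share of UMIs in WT gave 1 in C and 0 in CK in GC B. Totals without immunoglobulin genes gave 0 in K in CB, and median-ratio size factors 1 in C in GC B. The causes were not tested.

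The called log2 ratios that turned were Uhrf1 in T-like cells of C (0.70 after thinning), Dnmt1 in CC of K (0.37 relative to T-like cells), Dnmt1 in CB of C (-0.085 with cells above the gene limit) and Uhrf1 in GC B cells of K (-0.19) and CK (-0.22) with those cells. Ratios that were not called could turn too, as Uhrf1 did with those cells in CB (-0.43 for C, -0.38 for K, -0.30 for CK) and in GC B cells of C (-0.33). Dnmt1 in K, at -0.30 in CB and -0.44 in GC B cells, also turned when set against T-like cells (-1.30). Of 702 recomputed values other than the numbers of members called, 645 stayed within the range allowed, 52 moved beyond it, and 5 called values turned. For the ratio of a single gene, this range was its spread or counting interval. A 2-fold threshold changes calls and not ratios, so any ratio counted under it stayed by construction. The share that stayed is therefore not a measure of stability. No paired analysis was possible because each genotype has 1 library. Depth limits Dnmt3a, Dnmt3b and Tet2, at 163, 85 and 280 UMIs in all annotated GC B cells.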

Other observations

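A cluster of 1313 cells led by Ccl5, Gzmm and Nkg7, which carried T cell markers and was left unnamed, held Tet3 at 45.5 (WT), 42.8 (C), 25.6 (K) and 47.5 CPM (CK). The log2 ratio to CD8 T-like cells of the same library was -0.71 ± 0.22 (SD, n = 4), lower in 4 of 4 libraries without reaching 1.5-fold in CK, where 1.38% of genes were called lower. Its Dnmt3a stood at 25 (WT), 21.4 (C), 21.5 (K) and 23.00 CPM (CK), and the log2 ratio to CD8 T-like cells was -0.25 ± 0.30.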
